A study of Mus musculus with 8 samples.

Results

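The CXC chemokines described here are Cxcl1, Cxcl2, Cxcl3, Cxcl9, Cxcl10, Cxcl11, Cxcl14, Cxcl16, Pf4 and Ppbp, 10 genes of a family of small secreted proteins that direct the movement of leukocytes. They were taken by gene name from the probes on an Agilent mouse array that are not control spots, which gave 13 of 55681 probes. Of the 10 genes, 7 had a probe that passed the filter on dim signal described below and entered the test over 19286 genes. The arrays hold RNA of bone marrow-derived macrophages (BMDMs), cultured macrophages that develop from marrow cells, from male C57BL/6J mice. Each of 4 mice gave cells for both groups, 1 array with an siRNA that targets the terminal loop of RNYs (Y RNAs) and 1 with Control (Ct) siRNA, so the 2 groups hold 4 arrays each. The sample labels give replicate numbers, which were taken here as mice 1 to 4. All cells were transfected, and no array of untransfected cells was analysed here. The sources used here do not state age, the siRNA sequences, the dose or the time between transfection and lysis. The RNA integrity number was 10 for every sample except the control of mouse 4, where it was 8. Y RNAs are small noncoding RNAs that are cut into shorter fragments (s-RNYs), and the series asks which macrophage genes respond to those fragments.

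CXC chemokines carry 2 cysteines near the amino end with 1 residue between them, and they act on G protein-coupled receptors on leukocytes. Cxcl1, Cxcl2, Cxcl3 and Ppbp bear a Glu-Leu-Arg motif in front of the cysteines and attract neutrophils through Cxcr2. In macrophages Cxcl1, Cxcl2 and Cxcl3 are induced through NF-kB after Toll-like receptor signals. Cxcl9, Cxcl10 and Cxcl11 are induced by interferons and attract activated T cells and NK cells through Cxcr3. Pf4 (platelet factor 4, also Cxcl4) is stored in platelet granules and is also made by macrophages. Cxcl14 lacks the Glu-Leu-Arg motif and is made chiefly by epithelia, while Cxcl16 is made as a membrane protein that binds Cxcr6 and can be shed by proteases.

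The sequence just upstream of the start is shown for the 4 members whose window holds the NF-kB letters searched here. RefSeq windows (GRCm38.p6) were held for 8 of the 10 genes, all but Cxcl11 and Cxcl16, and each was searched over 250 bases before the start on both strands. The NF-kB motif searched was GGAATTTCC, the interferon-stimulated response element GAAANNGAA and the gamma-activated site TTCNNNGAA. Other spellings of an NF-kB site were not searched and are not marked, so a window without these letters may still hold one. The NF-kB letters were found in 0.286% of 32851 such windows, the interferon element in 7.13% and the gamma-activated site in 7.02%. Capitals mark the NF-kB letters and, in Cxcl10, the interferon element as well. The first 3 lines hold the 100 bases before the start, on the plus strand at chr5:90891145-90891244, chr5:90903799-90903898 and chr5:90786001-90786100, and the last holds 250 bases on the minus strand at chr5:92348890-92349139.
Cxcl1: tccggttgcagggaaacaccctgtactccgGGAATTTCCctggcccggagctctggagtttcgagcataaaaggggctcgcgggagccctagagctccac
Cxcl2: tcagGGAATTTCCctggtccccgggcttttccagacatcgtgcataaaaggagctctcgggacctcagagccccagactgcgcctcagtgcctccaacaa
Cxcl3: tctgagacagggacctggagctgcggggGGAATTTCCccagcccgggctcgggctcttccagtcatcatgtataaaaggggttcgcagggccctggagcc
Cxcl10: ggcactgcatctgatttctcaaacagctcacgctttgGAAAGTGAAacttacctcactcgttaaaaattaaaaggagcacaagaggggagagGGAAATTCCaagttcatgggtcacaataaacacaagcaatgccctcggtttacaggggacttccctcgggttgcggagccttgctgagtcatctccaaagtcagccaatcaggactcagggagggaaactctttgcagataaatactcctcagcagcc

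The NF-kB letters began 70 bases before the start of Cxcl1, 96 before that of Cxcl2, 72 before that of Cxcl3 and 158 before that of Cxcl10, where they lie on the opposite strand. The interferon element was found in Cxcl9, at 175 bases before the start, in Cxcl10, at 213, and in Cxcl14, at 172. The gamma-activated site was found in Cxcl14 alone of the 8 windows, at 191 bases. A match describes letters in a window and was not tested for binding.

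Most of these genes lie together in the genome. On build mm9, 11 of the 13 probes map to chromosome 5. On the plus strand these are the probes of Ppbp (91198970 to 91199029), Pf4 (91202275 to 91202334), Cxcl3 (91216694 to 91216753), Cxcl1 (91321845 to 91321904) and Cxcl2 (91334534 to 91334593). The 6 probes of the interferon-induced genes lie on its minus strand. Those of Cxcl9 are at 92752191 to 92752250 and 92752796 to 92752855, those of Cxcl10 at 92775781 to 92775840 and 92776616 to 92776675, and those of Cxcl11 at 92788567 to 92788626 and 92788640 to 92788699. The Cxcl14 probe lies on chromosome 13 (56390078 to 56390137) and the Cxcl16 probe on chromosome 11 (70267780 to 70267839), both on the minus strand. No annotation of mm9 was used here, so exon and UTR positions of the probes are not given.

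The arrays were alike in depth of signal, but the mice were not alike. The share of spots well above background was 48.7% to 50.7% per array, with 0 saturated. A level below is the log2 processed signal minus the 75th percentile of the array, and that percentile ran from 9.04 to 9.34 with both arrays of mouse 1 lowest. Mice 1 and 3 stood apart: among 906 genes that differed between the mice, mouse 1 was the highest of the 4 for 413 and the lowest for 420, and mouse 3 the highest for 313 and the lowest for 321. On the slide, row 1 held mice 1 and 2 and row 2 the rest, each with both siRNAs. Columns 1 and 3 held every Y RNA siRNA array and columns 2 and 4 every control array, so slide column and siRNA cannot be told apart. Both arrays of mice 1 and 3 lay in columns 3 and 4, and those of mice 2 and 4 in columns 1 and 2. Mouse and place on the slide therefore cannot be told apart either. All 10 macrophage markers, among them Adgre1, Csf1r and Cd68, were well above background on all 8 arrays.

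Of the 10 chemokines, 5 had a probe well above background on every array. Cxcl10, Cxcl11, Cxcl14, Cxcl16 and Pf4 were well above background on all 8 arrays. By probe this is 6 of 13, against 44.2% of all probes. The signals of both Cxcl11 probes may not come from Cxcl11 RNA alone, as described below. Cxcl2 was well above background on 5 arrays, Ppbp on 5 and Cxcl1 on 3, in each case with arrays from both groups. Cxcl3 and Cxcl9 were well above background on 0 arrays, as are 42.3% of all probes. Well above background is the scanner software's own call, and the lowest level that earned it lay between -4.69 and -4.44 on the 8 arrays. Probes with that call on at least 4 arrays were tested, 48.2% of all probes. With the software's more lenient call of a positive and significant signal, 9 of the 10 genes were above background on 8 arrays, and Cxcl3 on 0. Each gene was counted by its probe with the most arrays. The other probe of Cxcl9 had the lenient call on 1 array and that of Cxcl10 on 5. The share of all probes with this call was not computed, so the count is not a measure of expression.

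**Figure D1:**
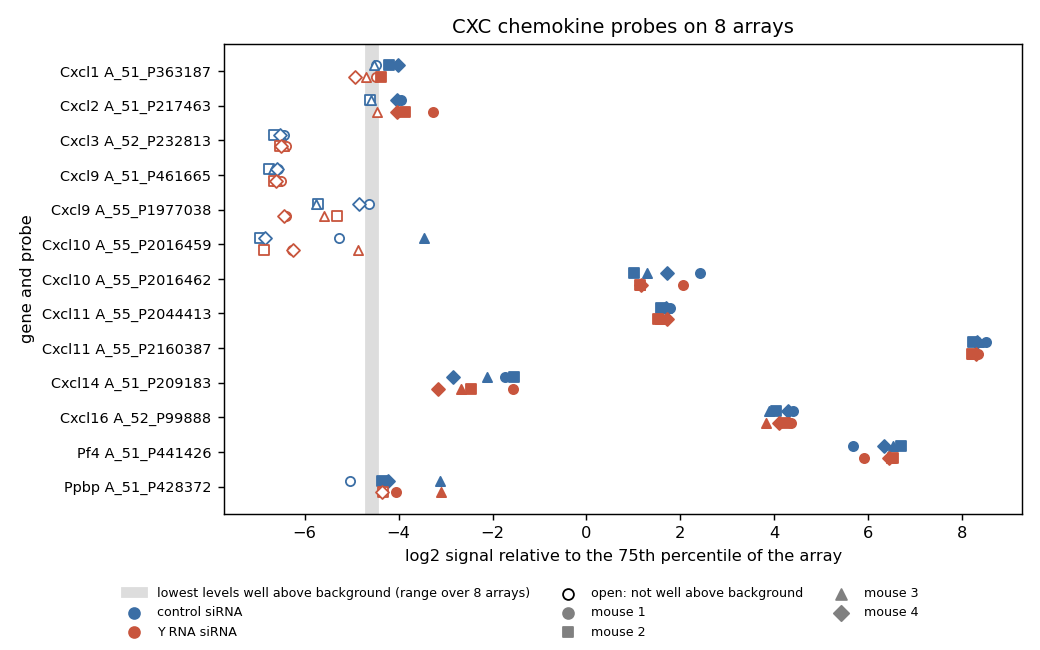
Level of each of the 13 chemokine probes on the 8 arrays (horizontal axis, log2 signal relative to the array's 75th percentile), with control siRNA in blue, Y RNA siRNA in red, one marker shape per mouse and open symbols for arrays not well above background. The grey band spans -4.69 to -4.44, the lowest levels called well above background, and levels are to be compared within a line only, since probes differ in how strongly they bind.

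The neutrophil-attracting ligands were at or near the detection limit. Cxcl2, the best measured of the NF-kB-induced ones, had control levels of -3.94, -4.60, -4.60 and -4.04 in mice 1 to 4. With the Y RNA siRNA its levels were -3.26, -3.86, -4.46 and -4.04. The highest value was that of mouse 1 with the Y RNA siRNA, mice 1, 2 and 3 were higher with that siRNA than with control (by 0.69, 0.74 and 0.14), mouse 4 was level, and the groups overlapped. Means were -4.30 ± 0.35 (SD, n = 4) in the control group and, under the Y RNA siRNA, -3.90 ± 0.50 (SD, n = 4). The difference was 0.39 ± 0.27 (SE), or 1.31-fold, with an unadjusted limma p of 0.183 and an adjusted p of 1.00. With mouse as a fixed block its error was smaller (SE 0.15) and the 95% interval ran from -0.0075 to 0.79. The limma p there was 0.0530 unadjusted and 0.540 adjusted.

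Cxcl1, which shares the receptor Cxcr2, was not tested, since it was well above background only in mice 2 and 4 of the control group and in mouse 2 of the other. Its control levels were -4.49, -4.20, -4.53 and -4.02 in mice 1 to 4, and with the Y RNA siRNA they were -4.48, -4.36, -4.69 and -4.92. The mouse 4 pair held both the highest and the lowest of the 8 values, a difference of -0.90 whose control is the sample with RNA integrity number 8, and the other 3 mice differed by -0.17 to 0.01. In a fit with no filter on dim probes its difference was -0.30 (adjusted p = 0.920). Cxcl3, the third of this trio, stayed between -6.65 and -6.40 on all 8 arrays and is not separated from background on any of them.

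Ppbp encodes a precursor of platelet and neutrophil-activating peptides and is a product of megakaryocytes. Its control levels were -5.02, -4.34, -3.12 and -4.22 in mice 1 to 4, and -4.06, -4.32, -3.10 and -4.35 with the Y RNA siRNA. Both arrays of mouse 3 stood above the other 6, and mouse 1 differed by 0.96 between the siRNAs while the other 3 differed by -0.13 to 0.02. The difference between groups was 0.22 ± 0.43 (SE), with an adjusted p of 1.00, and without mouse 1 it was -0.03. Ppbp was not well above background on 3 arrays, the control of mouse 1 and the Y RNA siRNA arrays of mice 2 and 4.

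Of the interferon-induced ligands, Cxcl10 was clearly measured and Cxcl9 was not. The Cxcl10 probe well above background on all arrays (A_55_P2016462) had control levels of 2.42, 1.01, 1.29 and 1.71 in mice 1 to 4. The levels with the Y RNA siRNA were 2.06, 1.14, 1.14 and 1.16. Both arrays of mouse 1 were above the other 6, and the other mice with the Y RNA siRNA lay close together. Group means were 1.61 ± 0.61 and 1.37 ± 0.46 (SD, n = 4), a difference of -0.23 ± 0.33 (SE) with an adjusted p of 1.00. Mice 1, 3 and 4 were lower with the Y RNA siRNA, by -0.37, -0.15 and -0.55, and mouse 2 was higher by 0.13. Without the control of mouse 1 the difference was 0.04. A second probe (A_55_P2016459) was well above background on the control array of mouse 3 only and was not tested.

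Cxcl9 had 2 probes, both on 0 arrays well above background. The first (A_51_P461665) stayed between -6.75 and -6.51 on all 8 arrays. The other (A_55_P1977038) read -4.63, -5.71, -5.76 and -4.85 in the control group and -6.41, -5.32, -5.58 and -6.43 with the Y RNA siRNA, each below the lowest level called well above background on its array. In the limma fit with no filter its difference was -0.70 (unadjusted p = 0.101, adjusted p = 0.920). Mice 1 and 4 were lower with the Y RNA siRNA, by -1.78 and -1.59, and mice 2 and 3 higher, by 0.40 and 0.18.

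Cxcl11 binds Cxcr3 tightly, although C57BL/6 mice are known to carry a frameshift in the gene that prevents a full protein. It had 2 probes whose letters recur on the array, so their signals may not come from Cxcl11 RNA alone. A stretch of each probe is shown because it carries this limit. Capitals mark bases that lie in a run of 16 or more bases also found, on either strand, in a probe for another gene. The first is from A_55_P2160387, bases 12 to 41, and the second from A_55_P2044413, bases 16 to 45.
A_55_P2160387: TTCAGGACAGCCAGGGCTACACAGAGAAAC
A_55_P2044413: CAGCACTTGAAAGGCAGAGGCAGGAGGATC

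All 30 bases of both stretches are shared. The brighter probe, A_55_P2160387, shared such a run with 19 probes of 19 other genes, 11 of them on the same strand, and 18 of those 19 probes were well above background on all 8 arrays. With 5 of them it shared 31 bases. On the same strand these were probes of Elk1, Med16 and Glrx2, and on the opposite strand those of Timmdc1 and AK140579. By signal, the bright Cxcl11 probe lay at percentiles 99.67 to 99.76 of all probes over the 8 arrays. Those on the same strand lay at 99.90 to 99.99 and those on the opposite strand at 83.0 to 87.3. A run shared with another gene's probe was found in 27.7% of all probes, and sharing with 19 or more in 0.673%. The other Cxcl11 probe shared 19 bases with the probe of Rn4.5s, a small RNA related to the mouse B1 repeat, on the same strand. The bright probe's runs of 16 bases also occurred in 55 of the 32851 promoter windows, or 0.167%. Of the 11 other chemokine probes, 10 shared no such run and the second Cxcl10 probe shared one with 1 probe. Which RNAs bind the Cxcl11 probes was not tested.

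The bright Cxcl11 probe gave control levels of 8.51, 8.22, 8.36 and 8.31 in mice 1 to 4 and 8.34, 8.20, 8.22 and 8.28 with the Y RNA siRNA. It was lower with the Y RNA siRNA in 4 of 4 mice, by -0.17, -0.02, -0.14 and -0.03, although the groups overlapped. The mean difference was -0.09 ± 0.07 (SE), with an adjusted p of 1.00 and a 95% interval of -0.26 to 0.08. The other probe read 1.78, 1.58, 1.72 and 1.69 in the control group and 1.60, 1.52, 1.56 and 1.71 with the Y RNA siRNA. It was lower in mice 1, 2 and 3 and level in mouse 4, with a difference of -0.10 ± 0.07 (SE). Both probes thus differed in the same direction by about the same small amount.

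Pf4 had nearly equal group means and was low in 1 mouse. Its control levels were 5.68, 6.69, 6.52 and 6.34 in mice 1 to 4, and with the Y RNA siRNA 5.91, 6.52, 6.48 and 6.45. Both arrays of mouse 1 were below the other 6. The difference between siRNAs was 0.03 ± 0.23 (SE), with an adjusted p of 1.00, and leaving out mouse 1 gave -0.03. With mouse as a fixed block the unadjusted p was 0.691.

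Cxcl14 had control levels of -1.73, -1.54, -2.11 and -2.85 in mice 1 to 4 and levels of -1.56, -2.47, -2.68 and -3.17 with the Y RNA siRNA. Mouse 4 was lowest in both groups, mice 2, 3 and 4 were lower with the Y RNA siRNA, by -0.93, -0.57 and -0.32, and mouse 1 was higher by 0.17. Group means were -2.06 ± 0.58 and -2.47 ± 0.67 (SD, n = 4). The difference of -0.41 ± 0.39 (SE) did not pass the test (adjusted p = 1.00, and 0.587 with mouse as a fixed block), and its 95% interval ran from -1.30 to 0.48. Leaving out single arrays moved the difference between -0.71 and -0.18. Without the control of mouse 4 it was -0.67 and without the Y RNA siRNA array of that mouse -0.18. It was -0.24 with the deposited table and -0.26 with normexp.

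Cxcl16, the transmembrane ligand of Cxcr6, read 4.39, 4.03, 3.88 and 4.29 in the control group and 4.36, 4.23, 3.82 and 4.11 with the Y RNA siRNA, again for mice 1 to 4. Mouse 1 was highest and mouse 3 lowest in each group. The difference was -0.02 ± 0.15 (SE), with an adjusted p of 1.00 and a 95% interval from -0.36 to 0.32, and its sign changed with which array was left out.

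**Figure D2:**
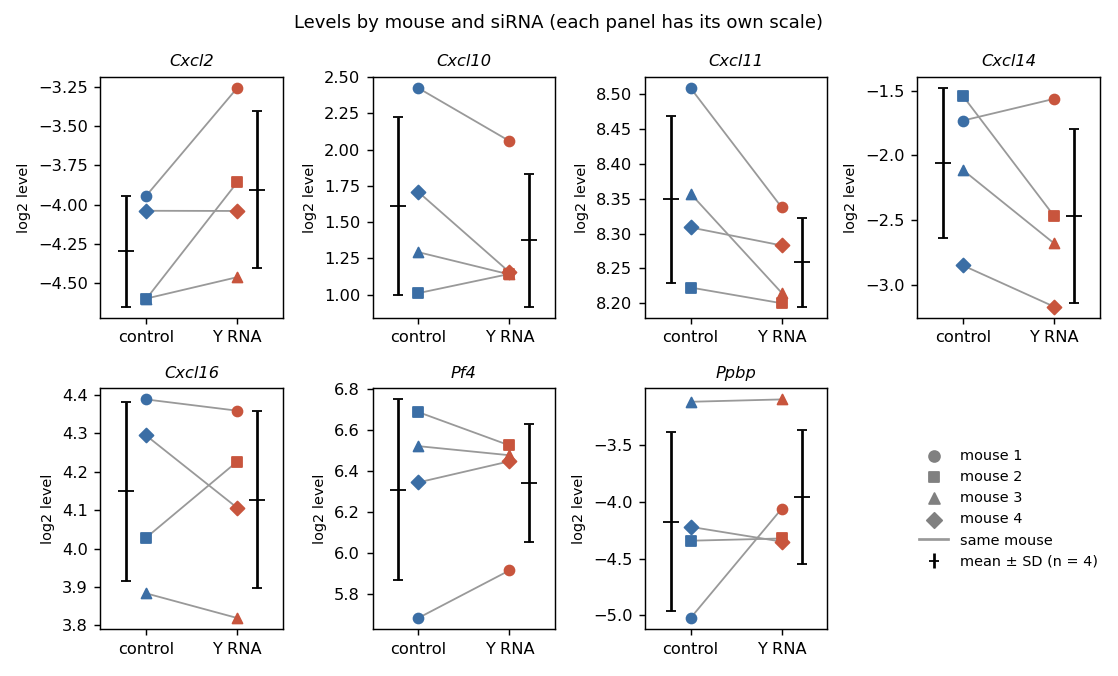
Level of the 7 tested chemokines on each array (vertical axis, log2 relative to the array's 75th percentile, a separate scale for each gene), with a grey line joining the control and Y RNA siRNA arrays of a mouse and black bars for the group mean ± SD (n = 4). Mouse 1 (circles) is apart for Cxcl10 and Pf4 and mouse 3 (triangles) for Ppbp, and the SD bars of the groups overlap for all 7.

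Over the family, the siRNA comparison called no chemokine. With limma and no block, 0 of the 7 tested members had an adjusted p under 0.05, as did 0% of the 19286 genes, whose smallest adjusted p was 0.0819. At an unadjusted p under 0.05 there were 0 of 7 members against 3.4% of all genes. With mouse as a fixed block the adjusted count was again 0 of 7 against 0%, and the unadjusted count 0 of 7 against 9.27%. With mouse as a random block 0 of 7 members were called against 0.057% of all genes. None of the 7 had groups that did not overlap, which 2.43% of 19248 genes had.

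The directions within the family were mixed. Cxcl2, Pf4 and Ppbp had the higher mean with the Y RNA siRNA and Cxcl10, Cxcl11, Cxcl14 and Cxcl16 the lower, 3 of 7 higher against 52.3% of all genes. The median difference over the 7 was -0.02, and 0.0046 over all genes. Cxcl11 alone of the 7 kept 1 direction in 4 of 4 mice, as did 19.3% of all genes, 10.4% upward and 8.86% downward. The Cxcl11 probes may not read Cxcl11 RNA alone. The 95% intervals of Cxcl11, Cxcl16 and Pf4 lay within a 2-fold change in either direction, and those of Cxcl2, Cxcl10, Cxcl14 and Ppbp did not. With mouse as a fixed block all 7 intervals lay within 2-fold.

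**Figure D3:**
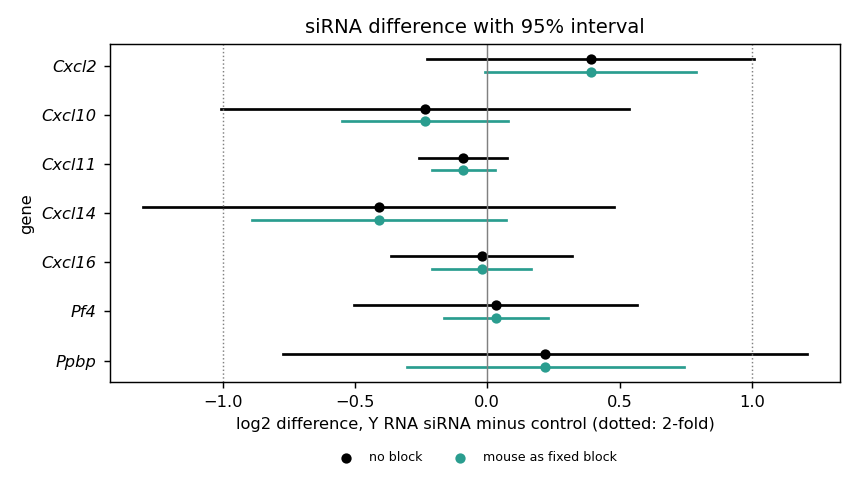
Log2 difference, Y RNA siRNA minus control, of the 7 tested chemokines (horizontal axis) with 95% intervals from limma, without a block in black and with mouse as a fixed block in green. Every interval includes 0, and dotted lines mark a 2-fold change.

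Between the mice, none of the 7 tested chemokines passed the adjusted test, although the ranges of most lay above the median gene. The mean of a mouse's 2 arrays spanned 1.44 between the highest and lowest mouse for Ppbp, 1.36 for Cxcl14, 1.17 for Cxcl10, 0.93 for Cxcl2, 0.81 for Pf4, 0.52 for Cxcl16 and 0.21 for Cxcl11. The median over all genes was 0.25, and 6 of the 7 members lay above it, all but Cxcl11. Ppbp lay at the 98.0 percentile of all genes, Cxcl14 at the 97.6, Cxcl10 at the 96.6, Cxcl2 at the 94.3, Pf4 at the 92.2, Cxcl16 at the 81.9 and Cxcl11 at the 40.0. Ppbp and Cxcl2 include arrays not well above background, and their ranges depended on the processing. So did those of Cxcl14 and Cxcl11, which were well above background on every array. That of Ppbp was 0.443 with normexp background correction and 0.607 with the deposited table, and that of Cxcl2 was 0.561 and 0.467. Cxcl14 gave 0.854 and 0.890 in those settings and Cxcl11 0.163 and 0.094.

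The direction of the mouse difference was not shared. Mouse 1 was the highest for Cxcl2 (-3.60), Cxcl10 (2.24), Cxcl11 (8.42), Cxcl14 (-1.65) and Cxcl16 (4.37) and the lowest for Pf4 (5.80) and Ppbp (-4.54). Mouse 3 was the highest for Ppbp, at -3.11, and the lowest for Cxcl2 and Cxcl16. Cxcl14 was lowest in mouse 4, at -3.01.

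A limma F-test between the mice, with the siRNA in the model, left these differences short of the threshold. At an adjusted p under 0.05 it called 0 of the 7 against 4.7% of all genes, and at an unadjusted p under 0.05 it gave 6 of 7, all but Cxcl11, against 29.7%. The smallest adjusted values were 0.0544 for Pf4 and 0.0646 for Cxcl10, followed by 0.104 for Ppbp and 0.108 for Cxcl14. Pf4 passed under 5 of the other ways of processing tried, with adjusted p-values down to 0.0127, and Cxcl10 under 3, down to 0.0245, and also without mouse 2 (0.0464). Cxcl2 passed with normexp only (0.0409) and Ppbp with the deposited table only (0.0418). Without mouse 1 the range was 0.21 for Pf4, 0.35 for Cxcl10, 0.49 for Cxcl2, 0.35 for Cxcl16 and 0.08 for Cxcl11. Without mouse 3 it was 0.26 for Ppbp and 0.25 for Cxcl16, and without mouse 4 it was 0.75 for Cxcl14. Mouse, culture and place on the slide cannot be told apart.

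**Figure D4:**
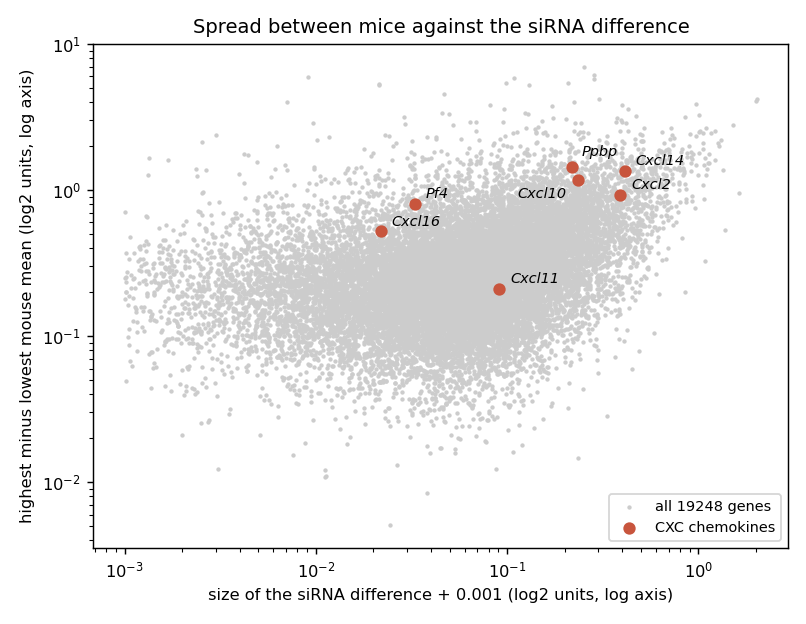
Range of the 4 mouse means (vertical axis, log2 units on a log axis) against the size of the siRNA difference plus 0.001 (horizontal axis, log2 units on a log axis) for 19248 genes in grey and the 7 chemokines in red. For each of the 7 the range between mice is larger than the siRNA difference, although a range over 4 means is wider than a difference of 2 means of like spread, and the ranges run from 0.21 for Cxcl11 to 1.44 for Ppbp, which was 0.443 with normexp.

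None of the other CXC ligands or the receptors was called for the siRNA. Of Cxcl5, Cxcl12, Cxcl13, Cxcl15 and Cxcl17, only the stromal chemokine Cxcl12 was tested, with a difference of -0.29 ± 0.45 (SE), and the other 4 were well above background on 0 arrays. Of the 8 receptors, Cxcr3, Cxcr4 and Cxcr6 were well above background on all 8 arrays. Cxcr3, the receptor of Cxcl9, Cxcl10 and Cxcl11, differed by -0.10 ± 0.11 (SE), and Cxcr6, that of Cxcl16, by -0.0006 ± 0.11 (SE). Cxcr4 differed by 0.02 ± 0.26 (SE) between siRNAs and passed the test between mice (adjusted p = 0.0244), with mouse 1 highest and mouse 3 lowest. That was 1 of 3 tested receptors, against 4.7% of all genes. The neutrophil receptors Cxcr1 and Cxcr2 and the decoy receptor Ackr1 were well above background on 0 arrays, and Cxcr5 and Ackr3 on 1.

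Among genes that process or carry these ligands, some differed between mice and none was called for the siRNA. Of 8 listed, 7 were tested, 4 higher and 3 lower with the Y RNA siRNA, and 0 had an adjusted p under 0.05 for it. Mmp8, the neutrophil collagenase, differed by 0.31 ± 0.16 (SE), Adam10, the sheddase of Cxcl16, by 0.05 ± 0.06 and Mmp9, gelatinase B, by -0.50 ± 0.69. Mmp8, Adam10 and Mmp9 each kept 1 direction in 4 of 4 mice, as did 19.3% of all genes. With mouse as a fixed block their unadjusted limma p-values were 0.00174, 0.196 and 0.00140, and 9.27% of all genes had one under 0.05. None was called there (adjusted p = 0.284, 0.699 and 0.275). Between mice 4 of the 7 passed, against 4.7% of all genes (a count that was 906 with all mice and 2 without mouse 1): Mmp9 (adjusted p = 0.00498), Mmp12 (0.00958), the proteoglycan Srgn (0.0423) and Mmp8 (0.0478). Adam10, Adam17 and Rhbdf2 did not pass, and Dpp4 was not tested. Mmp9 and Mmp12 were highest in mouse 3 and lowest in mouse 1, over ranges of 2.42 and 2.20. Mmp9 was well above background on 7 arrays only, so its range includes a value near the detection limit.

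The routes that induce the chemokines gave no siRNA call either. On the NF-kB route, 11 of 11 genes were tested, 4 higher and 7 lower, with 0 adjusted calls. The smallest p-values there belonged to the receptor Tlr4 (-0.05 ± 0.08), the inhibitor Nfkbia (-0.09 ± 0.14) and the adaptor Myd88 (-0.03 ± 0.05). Between mice Il1b, Tnf and Nfkb1 passed (adjusted p = 0.0352, 0.0434 and 0.0455), 3 of 11 against 4.7% of all genes. That share was 906 genes with all mice and 2 without mouse 1. Il1b was highest in mouse 1, where Cxcl2 was highest as well, and Tnf was lowest there. Il1b was well above background on 6 arrays and Cxcl2 on 5, so both include values near the detection limit.

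On the interferon route 13 of 13 genes were tested, 8 higher and 5 lower. There were 0 calls for the siRNA, against 0% of all genes, and 0 between mice, against 4.7%. The median difference was 0.04, and the kinase Jak2 (0.10 ± 0.05 SE) and the receptor chains Ifnar2 (0.08 ± 0.06) and Ifnar1 (-0.08 ± 0.06) had the smallest p-values. Among genes that govern decay of chemokine mRNA, 0 of 7 were called for the siRNA. All 7 had the lower mean with the Y RNA siRNA, with a median of -0.04, where 52.3% of all genes had the higher mean, and Zc3h12a alone of them kept 1 direction in 4 of 4 mice. Of these the ribonuclease Zc3h12a differed by -0.08 ± 0.08 (SE), Zfp36l2 by -0.09 ± 0.09 and Khsrp by -0.04 ± 0.06. Zfp36l1 passed the test between mice (adjusted p = 0.0423), 1 of 7 against 4.7% of all genes.

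Markers of other cells were called between mice for 2 of 5 tested neutrophil genes, 1 of 8 of fibroblasts and 0 of those of megakaryocytes, lymphocytes and dendritic cells. Of the 10 macrophage markers 1 was called, Cd14 (F-test adjusted p = 0.0464). Over all genes the share was 4.7%, or 906 genes, and 2 genes without mouse 1. In bulk RNA, fewer cells of a type and less RNA per cell cannot be told apart. Of 12 markers of megakaryocytes and platelets, the cells best known for Pf4 and Ppbp, 6 were well above background on 0 arrays, among them the defining Itga2b, Gp9, Gp1ba and Gp5. Another 5 were so on all 8. The summed linear level of the 12, relative to the 75th percentile, was 14.8 to 18.5 in the control group and 14.2 to 18.0 with the Y RNA siRNA. Such a sum is weighted to its brightest probe. Here that was Vwf, at a mean control level of 3.64, with Treml1 next at 1.93. Of 10 neutrophil markers 4 were well above background on all arrays, and 4, Ly6g, Ngp, Retnlg and Cxcr2, on 0.

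The summed neutrophil level was 4.16 in mouse 1, 5.56 in mouse 2, 6.32 in mouse 3 and 5.40 in mouse 4 under control siRNA. With the Y RNA siRNA it was 4.55, 5.83, 6.07 and 5.40. It was lowest in mouse 1 and highest in mouse 3 in each group. Elane weighed most in this sum, at a mean control level of 1.91 against -0.73 for S100a8, the next brightest. By the F-test Elane did not pass between mice (adjusted p = 0.429). Ppbp was highest in mouse 3 in each group too, but its lowest array was mouse 1 in the control group and mouse 4 in the other. S100a8 and Mpo passed the test between mice (adjusted p = 0.0245 and 0.0139), both highest in mouse 3. Mpo was well above background on 6 arrays only. Fibroblast markers summed to 0.920 to 3.12 in the control group and 1.19 to 3.24 in the other, lowest on both mouse 1 arrays. The part of these cells in the spread of Ppbp and Pf4 between mice was not tested.

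The remaining marker lists gave overlapping sums in both groups. Markers of T cells and NK cells summed to 3.40 to 4.75 in the control group and 3.82 to 4.37 with the Y RNA siRNA, with 3 of the 7 that have a probe on 0 arrays. B cell markers summed to 0.748 to 2.25 and 1.86 to 2.33, with 2 of 6 on 0 arrays. Dendritic cell markers summed to 89.0 to 96.3 and 82.8 to 96.6, with 2 of 6 on 0 arrays. The brightest probe again weighed most: Cd4 (mean control level 1.66), Cd79b (0.34) and Siglech (6.54). Next were Cd3e at -0.47, Cd79a at -3.11 and Ccr7 at -3.95, so the sums describe mainly these brightest probes and not a cell type.

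For each chemokine detected on all arrays, the 3 genes with the most similar levels were looked up. By Pearson's r over the 8 arrays, which come from 4 mice, Pf4 was closest to Cd109 (0.992), Pcdhac2 (0.990) and Cul2 (0.989). Cxcl10 was closest to the myeloid receptor Adgre4 (0.985), Tbc1d20 (0.985) and Rnf166 (0.979). The 3 nearest to Cxcl16 were Rnf19a (0.993), the transporter Abcc3 (0.987) and Tcp11l2 (0.987). For Cxcl14 they were the laminin gene Lamb2 (0.980), Fam107a (0.971) and Dynll2 (0.965), and for the bright Cxcl11 probe Rbm45 (0.984), Map6d1 (0.978) and 5031439G07Rik (0.974). Of these 15 genes, Adgre4, Cd109 and Pcdhac2 passed the test between mice, with adjusted p-values of 0.0125, 0.0423 and 0.0125, against 4.7% of all genes. They were picked for following Cxcl10 or Pf4, for which mouse 1 stood apart. The search thus favours genes that differ between mice, and their calls add no separate evidence. Such values are the top of a search over all genes with a symbol on few arrays, and they describe these arrays only.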

How the data were processed

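RNA of 8 BMDM samples (0.2 µg each, Cy3) was read on 1-colour arrays of design 028005, all on 1 slide. The deposited scanner files hold intensity values made with Agilent Feature Extraction 10.7.3.1, per the file headers. A second deposited file, the value table, gives log2 values of unstated method and centring (column medians 6.26 to 6.27, maximum 18.6) and served as an alternative only. It correlated with the log2 median signal of each array at 0.9998 or more.

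Control spots were left out and outlier spots set to missing, which touched no chemokine spot. From each log2 processed signal the 75th percentile of its array was subtracted, and spots of a probe were averaged. The filter kept 26820 probes that were well above background on 4 or more arrays. A gene was represented by its brightest kept probe, and symbols were updated by accession through a RefSeq table of GRCm38.p6 (26762 probes matched). The test between siRNAs was limma 3.58.1 (R 4.3.3; lmFit, eBayes, two-sided), without a block in the main model, and p-values of the 19286 genes were adjusted together (Benjamini-Hochberg, calls under 0.05). The range of mouse means was tested with the moderated F-test of the mouse term.

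The series design gives 4 mice, and the replicate numbers of the labels were taken as mice. The deviations of the 2 arrays with the same number from the group means correlated at 0.618, 0.155, 0.580 and 0.285. Those arrays also lay side by side on the slide, so this correlation cannot tell mouse from place on the slide. Correlations between arrays of different numbers are not given. The labels do not say whether cultures of a mouse were separate, so p-values measure the spread between these arrays. The number of arrays limits the precision. All 10 members are named, with up to 3 genes of smallest p per pathway list, those that passed between mice, and the 3 nearest genes of each member detected on all arrays. Members, lists, motifs and tests were chosen with earlier results of these data known. The code was tested on simulated data.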

Additional observations from a re-analysis of the deposited data

Results flagged for a closer look

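A single array stood far from the other 3 of its group for 2 chemokines. For Cxcl10 with the Y RNA siRNA, the array of mouse 1 lay above the other 3, with a gap of 0.983 of the group's whole range. For Pf4 in the same group, the array of mouse 1 lay below the other 3, with a gap of 0.873 of the range. The critical value for 4 samples is 0.829 (Dixon's 95% test). It was applied to 16 groups, and chance flags about 1 in 20 groups. The control array of mouse 1 lay on the same side of its group for both genes.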

How the results depend on the processing

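No alternative brought a chemokine past the threshold for the siRNA. The replicate block by mouse gave 0 calls among members and 0 over all genes when fixed, and 0 among members and 11 over all genes when random (correlation 0.534). Small differences changed sign. Centring on the median of all probes turned Cxcl16 to 0.0086. Leaving out arrays or whole mice in turn gave -0.46 to 0.037 for Cxcl10, -0.11 to 0.082 for Cxcl16, -0.18 to 0.17 for Pf4 and -0.068 to 0.57 for Ppbp. Cxcl2 (0.18 to 0.58), Cxcl11 (-0.13 to -0.04) and Cxcl14 (-0.71 to -0.18) kept their sign. With normexp background correction Cxcl2 was 0.11, and the range of mouse means of Ppbp was 0.443 against 1.44. The count of genes that differed between mice depended on the processing: it was 906 in the main model, 3314 with normexp, 1861 with the deposited table and 173 with no filter. Leaving out a mouse gave 2 to 1217, with 2 without mouse 1, 164 without mouse 3 and 336 without mouse 4. Between mice, Pf4 passed with the deposited table (adjusted p = 0.0226) and Cxcl10 with normexp (0.0245). Detection by a positive and significant signal gave 9 of 10 members on all arrays instead of 5, and its share over all probes was not computed. Signal near background limits Cxcl1, Cxcl2, Cxcl3, Cxcl9 and Ppbp. The causes of these shifts were not tested.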
